A study of Mus musculus with 31 samples.

Results

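Described here are 10 genes through which cells hold on to each other or couple their interiors: the cadherins Cdh2, Cdh3, Cdh11 and Cdh13, the connexins Gja1, Gjb2 and Gjc1, and the immunoglobulin-fold adhesion molecules Ncam1, Vcam1 and Icam1. They were chosen by name from the 24421 genes of a read count table, and all 10 were found in it. A filter on low counts left 14036 genes for testing, and 9 of the 10 were among them. Gjb2 did not pass and was not tested. The table held RNA sequencing of fibroblasts freshly taken from the hearts of C57Bl/6 mice aged 8 to 12 weeks and cultured; these cells make most of the heart's collagen matrix. No transgene, deletion or drug is named for any group. The 10 groups were a flat layer (2D), a three-dimensional arrangement (3D), cells whose label names 3D and then 2D (3D-2D), cells whose label adds a further 3D or 2D phase (3D-2D-3D and 3D-2D-2D), 2D and 3D at 5 days (2D-5days and 3D-5days), and flat substrates of stiffness 0.5, 8 and 64 kPa (labels 2D-0.5kPa, 2D-8kPa, 2D-64kPa). Each group had 3 libraries except 3D-2D, which had 2. The labels leave out how long each phase lasted, what the substrates were made of and how many mice gave a library, and 2 ATAC-seq libraries were not analysed here.

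Classical cadherins bind their like on the next cell in a calcium-dependent way, and their tails hold catenins that reach the actin cytoskeleton. Connexins assemble into gap junction channels that pass ions and small molecules from cell to cell; in the heart, Gja1 (connexin 43) is the main connexin of working muscle and is also made by fibroblasts. Ncam1, Vcam1 and Icam1 carry immunoglobulin-fold domains. Ncam1 binds its like, whereas Vcam1 and Icam1 bind integrins of leukocytes and are classical targets of the inflammatory factor NF-kappaB.

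RefSeq upstream windows on GRCm38.p6 (mm10) were at hand for 3 of the 10 genes, Gja1, Gjb2 and Icam1. The 250 bases before the start of Icam1 and of Gja1 are shown, because in both genes several calls turned on which replicates were included. They were searched on both strands for the motifs TGANTCA (AP-1), TTCNNNGAA (STAT), GGGANTTCC (NF-kappaB) and GGAATG (TEAD), and capitals mark the match found.

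Icam1, chr9:21015690-21015939, plus strand: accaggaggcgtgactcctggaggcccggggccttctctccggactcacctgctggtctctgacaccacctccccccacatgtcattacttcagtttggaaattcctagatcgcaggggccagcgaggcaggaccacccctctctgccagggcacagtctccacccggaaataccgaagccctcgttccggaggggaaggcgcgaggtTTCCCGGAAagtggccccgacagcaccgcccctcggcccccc

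Gja1, chr10:56377050-56377299, plus strand: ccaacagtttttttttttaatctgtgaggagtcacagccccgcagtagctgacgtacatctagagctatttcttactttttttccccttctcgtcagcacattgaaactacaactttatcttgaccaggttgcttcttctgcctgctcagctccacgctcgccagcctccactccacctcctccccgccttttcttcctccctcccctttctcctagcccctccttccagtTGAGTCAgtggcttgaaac

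The Icam1 window held TTCCCGGAA at bases -42 to -34 from the start, and the Gja1 window held TGAGTCA at -19 to -13. Both patterns are palindromic, so a match on one strand is a match on the other. Of 32851 windows of this length, 7.02% held TTCNNNGAA, 6.75% TGANTCA, 1.43% GGGANTTCC and 12.6% GGAATG. No further match to these letters lay in the 2 windows, and the Gjb2 window held none. Each pattern was a fixed spelling, so sites with other letters were not counted. The Icam1 window also held ggaaattcc, which is close to GGGANTTCC but is not a match. A match is a description of letters only.

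Library depth ran from 8509987 to 29909400 gene counts, with a median of 13249318. Levels below are CPM, reads scaled to the total of the tested genes and to TMM factors, so levels of different genes are not comparable per length. Replicate 3 stood apart in several groups. Log2 CPM differences between 2D replicates 1 and 2 had an SD over genes of 0.343, against 0.760 and 0.750 for these and replicate 3. In 3D it was 0.280 against 1.06 and 0.966, and in 3D-2D-3D 0.232 against 0.540 and 0.552. The substrates showed the same, with 0.396 against 0.706 and 0.695 at 0.5 kPa and 0.323 against 0.675 and 0.641 at 8 kPa. At 64 kPa it was 0.338 against 0.722 and 0.692. At 5 days replicate 1 stood apart instead. The SD between replicates 2 and 3 was 0.405 in 2D-5days, against 0.705 and 0.703 for these and replicate 1. In 3D-5days it was 0.413 against 0.753 and 0.736. Fibroblast markers were present in all 10 of 10 cases and summed to 17118 to 74666 CPM. Markers of other cells were measured beside them. Macrophage markers, 15 in the table and none at 0 in any library, summed to 8207, 5756 and 209 CPM in the 3D replicates 1, 2 and 3, and to 1145, 1236 and 1426 CPM in 2D. Cardiomyocyte markers summed to 67.2, 72.5 and 208 CPM in 3D, to 34.3, 33.6 and 166 CPM in 3D-2D-3D and to 10.6, 11.6 and 26.0 CPM in 2D. Most of this was Tnnt2 (cardiac troponin T), with a mean of 112 CPM in 3D, while Myh6, the cardiac myosin heavy chain, had group means of 0.131 to 0.765 CPM. Lymphocyte markers summed to at most 1.23 CPM, and 3 of the 10 were at 0 in every library. The labels do not say that replicates were separate cultures, so p-values measure only the spread between libraries, in part perhaps technical. In such bulk samples, fewer cells of a type and less RNA per cell cannot be told apart.

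**Figure D1:**
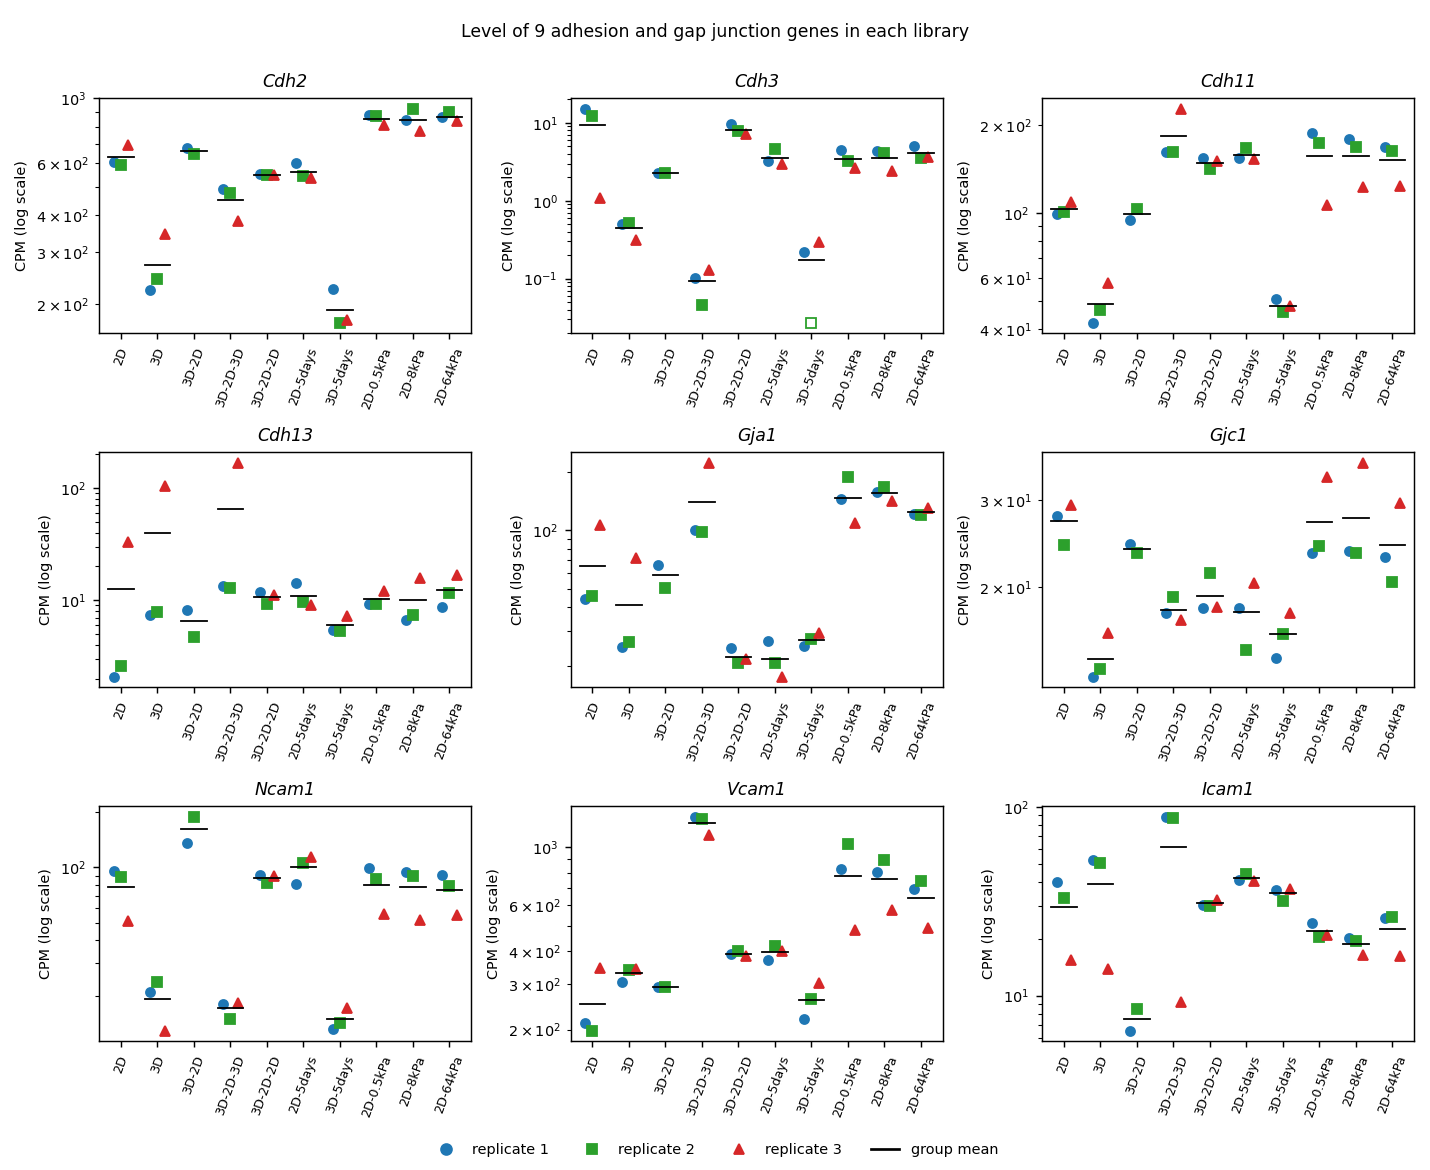
Level of the 9 tested genes in each of the 29 libraries, in CPM on log axes, by group; symbols mark the replicate number, lines the group mean, and an open symbol at the bottom edge a library with 0 counts. Ncam1 is between 12.9 and 23.8 CPM in the groups that ended in 3D and between 50.8 and 188 CPM in all others, whereas Cdh13 in replicate 3 of 2D, 3D and 3D-2D-3D lies far above replicates 1 and 2.

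The first comparison asked how cells in 3D differed from cells in 2D. Cdh2, Cdh11, Cdh3, Gjc1 and Ncam1 were lower in 3D, with log2 differences of -0.93 to -4.39, and no gene of the set was called higher. A call means an adjusted p under 0.05 in edgeR's quasi-likelihood test over all 14036 genes. The count of 5 called of 9 stands beside 54.0% of all genes called, 26.7% higher and 27.3% lower. Libraries of 5 of the 9 did not overlap, beside 56.3% of all genes. The median change of the 9 genes was -0.93 and that of all genes 0.04. With replicate 3 left out of both groups 7 of 9 were called. When it was left out of 3D-2D-3D as well, 3516 of all genes were higher and 3609 lower. With the replicate number as a block 7 of 9 were called. The share of all genes for the block is not given here, so that count is not read against a background.

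When cells were moved from 3D to 2D, Cdh2, Cdh3, Cdh11, Gjc1 and Ncam1 were higher in 3D-2D than in 3D, and Icam1 was lower. That is 6 of 9, beside 56.5% of all genes (28.8% higher, 27.7% lower), and 7 of 9 did not overlap, beside 70.6%. The pair shares the 3D libraries with the first comparison, so its values are a second reading against the same 3D cells and not separate evidence. In the second 3D phase, 3D-2D-3D against 3D-2D, Cdh11, Cdh13, Gja1, Vcam1 and Icam1 were called higher and Cdh2, Cdh3 and Ncam1 lower, 8 of 9 beside 49.2% of all genes (24.2% higher, 25.0% lower). All 9 were without overlap, beside 76.1%. Leaving out single libraries gave 6 to 8 of the 9, beside 5099 to 6300 of all 14036 genes. Against cells kept in 2D, 3D-2D-2D, the calls were Gja1 and Vcam1 higher and Cdh3 and Ncam1 lower, 4 of 9 beside 40.4% (19.8% higher, 20.6% lower), and 7 of 9 did not overlap, beside 63.7%. At 5 days, 3D against 2D, Cdh2, Cdh3, Cdh11, Ncam1 and Vcam1 were called lower, 5 of 9 beside 32.4% of all genes (14.9% higher, 17.5% lower), and 7 of 9 did not overlap, beside 40.4%.

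**Figure D2:**
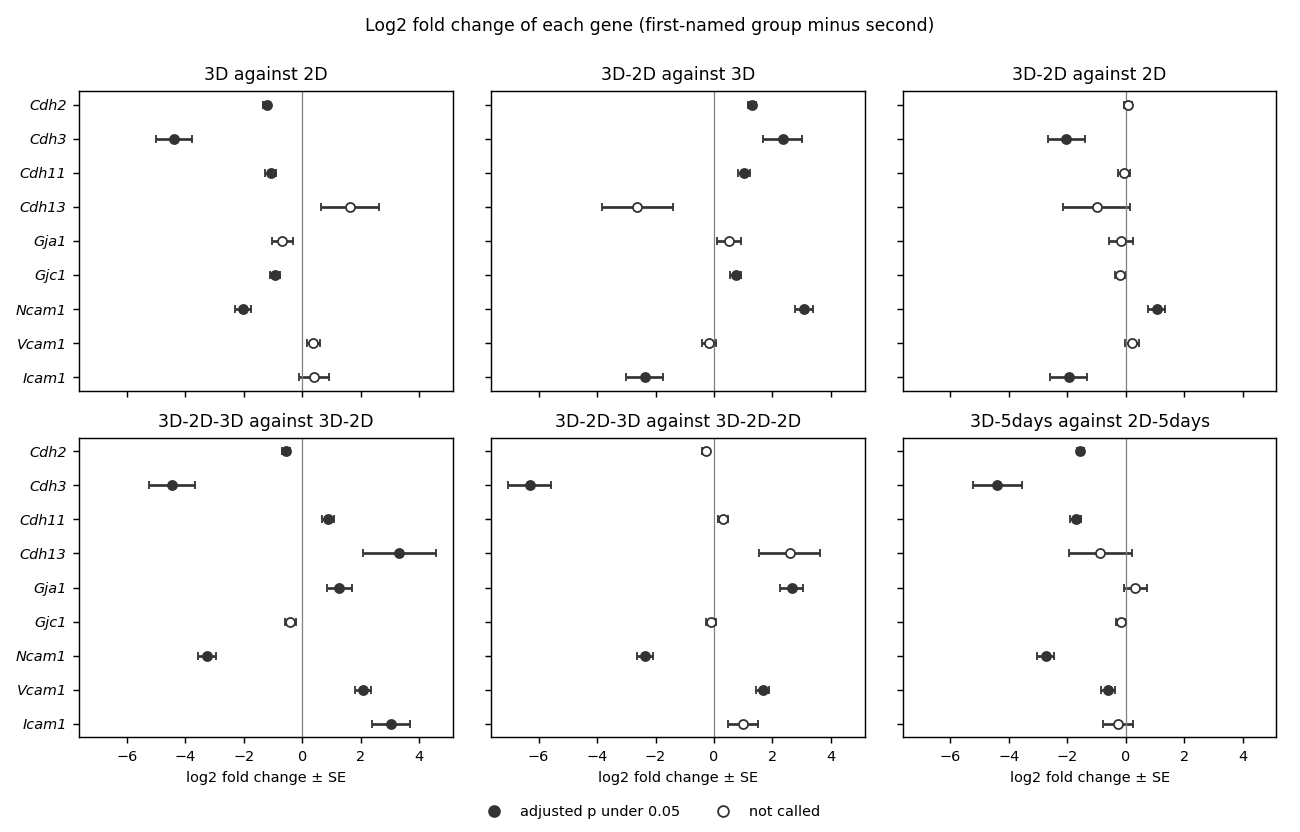
Log2 fold change of each tested gene, first-named group minus second, in 6 comparisons; points are edgeR estimates, bars 1 standard error, and filled points have an adjusted p under 0.05. Cdh3 and Ncam1 lie left of 0 in 3D against 2D, in both comparisons of 3D-2D-3D and at 5 days, and right of 0 in 3D-2D against 3D; Vcam1 is at 2.09 and 1.66 in the 2 comparisons of 3D-2D-3D.

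Cdh2 encodes N-cadherin, the classical cadherin of mesenchymal cells and heart muscle, and lies on mm10 chromosome 18 from 16588877 to 16809246. Its level was 606, 592 and 695 CPM in the 2D libraries and 224, 244 and 345 CPM in the 3D libraries. All 3D libraries lay below all 2D libraries, and the difference was -1.22 ± 0.13 (SE, n = 3 and 3, adjusted p = 1.14e-07). After the move to 2D the 3D-2D libraries stood at 679 and 646 CPM, 1.29 ± 0.14 above 3D (n = 2 and 3, adjusted p = 1.74e-07). They overlapped the 2D libraries, with a difference of 0.07 ± 0.15 that was not called.

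In the second 3D phase Cdh2 lay between the first 3D phase and 2D. The 3D-2D-3D libraries held 491, 476 and 383 CPM, each above each 3D library, and differed from 3D-2D by -0.56 ± 0.15 (n = 3 and 2, adjusted p = 0.00279). The difference between 3D-2D-3D and 3D was not tested. In 3D-2D-2D the level was 551, 548 and 550 CPM, and the difference of 3D-2D-3D from it, -0.29 ± 0.13, was not called (n = 3 and 3, adjusted p = 0.0839). At 5 days Cdh2 stood at 601, 546 and 536 CPM in 2D and at 224, 173 and 178 CPM in 3D, a difference of -1.55 ± 0.13 (n = 3 and 3, adjusted p = 9.17e-09). The 9 substrate libraries were the highest of all, between 774 and 921 CPM. In order of group means, the substrates (845 to 865 CPM) overlapped each other, then came 3D-2D, 2D, 2D-5days and 3D-2D-2D (550 to 663 CPM), each overlapping the next, then 3D-2D-3D at 450 ± 58.5 CPM (SD, n = 3), and last 3D (271 ± 65.0, n = 3) and 3D-5days (192 ± 28.4, n = 3).

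Cdh11, or OB-cadherin, a cadherin known from bone-forming cells and activated fibroblasts, lies on chromosome 8 from 102632095 to 102785493. It had 99.2, 101 and 109 CPM in 2D and 42.1, 46.7 and 57.6 CPM in 3D. The groups did not overlap, and the difference was -1.08 ± 0.18 (adjusted p = 2.95e-05). In 3D-2D it was back at 94.9 and 103 CPM, 1.02 ± 0.20 above 3D (adjusted p = 0.00014).

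In the second 3D phase Cdh11 went the other way from Cdh2. The 3D-2D-3D libraries held 162, 162 and 228 CPM, all above 3D-2D, by 0.89 ± 0.20 (adjusted p = 0.000849). In 3D-2D-2D they were 154, 142 and 151 CPM, so that both groups with a further phase were high, and 3D-2D-3D was not called against it (0.31 ± 0.18, adjusted p = 0.174). With scaling by library totals that difference was 0.54 and was called (adjusted p = 0.0148). At 5 days the 2D libraries held 154, 167 and 154 CPM and the 3D libraries 50.8, 45.7 and 48.0 CPM, a difference of -1.72 ± 0.18 (adjusted p = 2e-07). The 3D groups without an earlier 2D phase, 3D and 3D-5days, were the 2 lowest of the 10 group means, at 48.8 and 48.2 CPM, and overlapped. The 6 groups from 3D-2D-3D (184 ± 37.9 CPM, n = 3) down to 3D-2D-2D (149 ± 6.21 CPM, n = 3) overlapped neighbour by neighbour. On the substrates replicate 3, with 107, 122 and 124 CPM, was the lowest of each group.

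Cdh3, P-cadherin, mostly an epithelial cadherin, lies on chromosome 8 from 106510852 to 106556911 and was scarce. It had 183, 155 and 30 reads in the 2D libraries and 10, 11 and 9 in the 3D libraries, which is 15.2, 12.2 and 1.07 CPM against 0.508, 0.525 and 0.312 CPM. Even the low 2D replicate 3 was above all 3D libraries, and the fitted difference was -4.39 ± 0.63 (adjusted p = 5.36e-06). Replicate 3 alone gave -1.73 (adjusted p = 0.0472). In pooled reads, 368 against 30, 2D stood 16.2-fold higher (95% exact interval 11.1 to 24.3, counting error only).

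The 3D-2D libraries had 55 and 45 reads (2.30 and 2.26 CPM), 2.35 ± 0.66 above 3D (adjusted p = 0.00484). The 3D-2D-3D libraries had only 3, 1 and 4 reads, and the 3D-2D-2D libraries 115, 64 and 78. The pooled ratio was 85.3-fold (42.6 to 200), and the fitted differences were -6.30 ± 0.74 from 3D-2D-2D (adjusted p = 6.68e-07) and -4.46 ± 0.78 from 3D-2D (adjusted p = 5.95e-05). At 5 days the 2D libraries had 27, 36 and 26 reads and the 3D libraries 2, 0 and 3. That pooled ratio was 22.0-fold (9.09 to 69.5), with a fitted difference of -4.39 ± 0.83 (adjusted p = 0.000274). Replicate 3 alone gave -3.25 at 5 days and no call (adjusted p = 0.152). The 3 groups ending in 3D had group means of 0.0922 to 0.449 CPM, below the 2.28 to 9.51 CPM of the 7 other groups, and no library overlapped, the nearest being 2D replicate 3 at 1.07 CPM. Epicardial and mesothelial markers summed to 217 to 224 CPM in 2D and 80.2 to 102 CPM in 3D. In 3D-2D-3D they summed to 110 to 133 CPM and in 3D-2D-2D to 212 to 236 CPM. Any part of such cells in the Cdh3 values was not tested.

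Cdh13, or T-cadherin, is attached to the membrane by a lipid anchor and has no tail for catenins. It lies on chromosome 8 from 118140017 to 119324929. Its level was 2.08, 2.60 and 32.8 CPM in 2D, 7.31, 7.78 and 105 CPM in 3D, and 13.4, 12.9 and 168 CPM in 3D-2D-3D. In each of these groups replicate 3 was far above replicates 1 and 2, and within each replicate number the order of the 3 groups was the same. Whether the numbers pair 3D-2D-3D with 2D or 3D was not tested. The difference between 3D and 2D was 1.63 ± 0.99 and was not called (adjusted p = 0.17), but with the replicate number as a block it was 1.69 and called (adjusted p = 0.00457). Without 2D replicate 3 it was 4.08 (adjusted p = 0.00833), and without 3D replicate 3 it was -0.79 and not called.

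The rise of 3.32 ± 1.25 from 3D-2D to 3D-2D-3D (adjusted p = 0.0327) was 1.0 without replicate 3 of 3D-2D-3D and was then not called (adjusted p = 0.458). Leaving out 3D-2D replicate 1 (3.78) or 2 (2.98) also ended the call. With the replicate block the rise was 1.02 and called (adjusted p = 0.00297). That block leaves replicate 3 of 3D-2D-3D without a partner, so its value rests on replicates 1 and 2. Their deviations correlated at -0.127 and 0.088, but this cannot decide whether the numbers are pairs. Numbers were taken as pairs only in comparisons with 3 pairs, and this one has 2. The 2 libraries of 3D-2D also deviate from their mean by equal and opposite amounts. This call therefore has no tested pairing behind it. Cardiomyocyte markers moved with replicate 3 in these groups, as given above, and their part in the Cdh13 values was not tested. In the other 7 groups Cdh13 lay between 4.72 and 16.7 CPM, and all 9 neighbours in the order of the group means overlapped. At 5 days 3D lay lower in every library, 5.45, 5.34 and 7.16 CPM against 14.2, 9.64 and 9.04 CPM. The fitted difference of -0.87 ± 1.08 was not called, and with the block it was -0.82 and called (adjusted p = 0.00709).

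Other cadherins and the catenins were read from lists of the same families. Of 15 tested cadherins and protocadherins outside the set, 7 were lower and 3 higher in 3D than in 2D, 66.7% called beside 54.0% of all genes, with a median of -0.45 beside 0.04 for all genes. The protocadherins Pcdh19 (-2.63 ± 0.25, from 161 to 25.9 CPM) and Pcdh18 (-2.41 ± 0.20) were lower, and so was the giant cadherin Fat1 (-2.0 ± 0.24), from 2592 CPM in 2D to 647 CPM in 3D. Comparing 3D-2D with 3D, 9 were higher and 4 lower (86.7% called beside 56.5%), Pcdh19 at 2.72 ± 0.27 and Fat1 at 1.69 ± 0.26. In 3D-2D-3D against 3D-2D 5 were higher and 6 lower (73.3% beside 49.2%): Pcdh18 changed by -3.30 ± 0.22 and Pcdh7 by 1.63 ± 0.26. At 5 days 7 were lower and 2 higher (60.0% beside 32.4%), with Fat4, the receptor in Dachsous-Fat signalling, at -3.10 ± 0.25. Cdh1 (E-cadherin), chosen here after its values were seen, had a highest group mean of 1.21 CPM, in 3D-2D.

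Of 17 tested catenins and junction adaptors, 10 were lower and 3 higher in 3D than in 2D, 76.5% called beside 54.0% of all genes (median -0.81). Vcl, vinculin, which links catenins and integrins to actin, was at 155 CPM in 3D and 714 CPM in 2D (-2.20 ± 0.24), and Plekha7, an adaptor of adherens junctions, was at -2.43 ± 0.24. Ctnnb1, beta-catenin, moved against them, from 545 CPM in 2D to 1221 CPM in 3D (1.17 ± 0.16, adjusted p = 2.61e-06). The 3D-2D cells had Vcl 2.37 ± 0.26 higher and Ctnnb1 1.29 ± 0.18 lower than 3D, so Ctnnb1 and Cdh2 had opposite signs in these comparisons. In 3D-2D-3D against 3D-2D 8 adaptors were lower and 2 higher (58.8% beside 49.2%), with Ctnnb1 again up at 1.58 ± 0.19. At 5 days 9 were lower and 4 higher (76.5% beside 32.4%), among them Arvcf, a relative of p120 catenin, at -3.39 ± 0.33 and Jup, plakoglobin, at -1.81 ± 0.32.

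A list of 9 tested genes of cadherin shedding, which holds proteases, subunits of gamma-secretase and the beta-catenin inhibitor Ctnnbip1, had 4 higher and 3 lower in 3D against 2D, 77.8% called beside 54.0% of all genes. Mmp14, a membrane-bound metalloproteinase, was at 2023 CPM in 3D and 552 CPM in 2D (1.87 ± 0.14), and Adam9 was lower at -1.74 ± 0.16. Of 8 tested repressors of Cdh1 and mesenchymal transcription factors, 3 were higher and 1 lower (50% called beside 54.0% of all genes), with Tcf4 at 0.77 ± 0.09 and Twist1 at -0.90 ± 0.19.

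**Figure D3:**
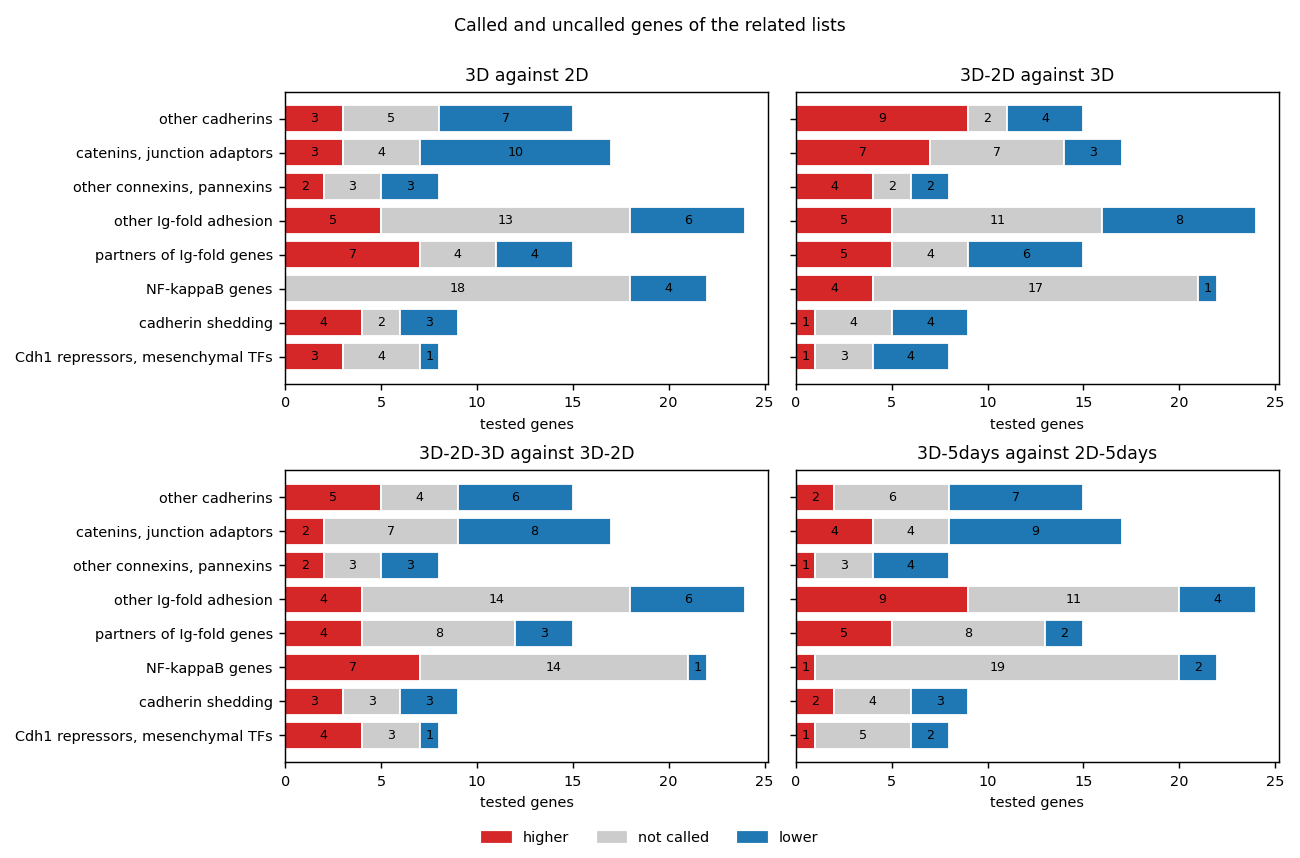
Number of tested genes of each related list called higher (red), lower (blue) or not called (grey) in 4 comparisons, counted from edgeR adjusted p-values over all genes. Among catenins and junction adaptors 10 of 17 are lower in 3D than in 2D and 9 of 17 are lower at 5 days.

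Gja1, connexin 43, lies on chromosome 10 from 56377300 to 56390419. It had 44.3, 45.6 and 106 CPM in 2D and 24.9, 26.5 and 71.6 CPM in 3D. Replicate 3 was again the high library of both groups, so the groups overlapped, and the difference of -0.67 ± 0.37 was not called (adjusted p = 0.13). Within each replicate number 3D was the lower, and with the block the difference was -0.72 and called (adjusted p = 0.0132). In replicates 1 and 2 alone it was -0.83 and called (adjusted p = 0.0278), and without 3D replicate 3 it was -1.36 (adjusted p = 0.00295). Without 2D replicate 3 it was -0.14 and not called. The 3D-2D libraries held 66.2 and 50.6 CPM, not called against 3D (0.51 ± 0.41) or against 2D (-0.17 ± 0.41). Without 3D replicate 3, the difference from 3D was 1.19 and called (adjusted p = 0.0103), and without 3D replicate 1 it was 0.24 and not called.

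Gja1 was high in one further phase and low in the other. It was at 99.9, 98.3 and 224 CPM in 3D-2D-3D and at 24.6, 20.6 and 21.6 CPM in 3D-2D-2D, with no overlap. The difference was 2.66 ± 0.40 (adjusted p = 1.61e-05), 2.13 in replicates 1 and 2 and 3.37 in replicate 3 (adjusted p = 0.00425). Against 3D-2D the rise was 1.27 ± 0.43 (adjusted p = 0.0179), and it was not called without replicate 3 of 3D-2D-3D (0.74, adjusted p = 0.147) or without 3D-2D replicate 1 (1.47, adjusted p = 0.0504) or 2 (1.09, adjusted p = 0.14). Cardiomyocyte markers, highest in replicate 3 of 3D-2D-3D as given above, summed to 32.2 to 36.1 CPM in 3D-2D-2D. Their part in the Gja1 values was not tested.

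At 5 days Gja1 was low in both arrangements, 27.0, 20.6 and 17.5 CPM in 2D and 25.1, 27.3 and 29.3 CPM in 3D. These overlapped, with a difference of 0.33 ± 0.39. The substrate libraries held 109 to 189 CPM. In the order of group means 8 kPa (156 ± 12.9 CPM, n = 3), 0.5 kPa, 3D-2D-3D and 64 kPa (124 ± 6.23 CPM, n = 3) overlapped in turn and had the 4 highest means. Then followed 2D, 3D-2D, 3D and 3D-5days (65.3 to 27.3 CPM), and 3D-2D-2D (22.3 ± 2.08 CPM, n = 3) and 2D-5days (21.7 ± 4.81 CPM, n = 3) came last.

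Gjc1, connexin 45, a connexin of the conduction system and of early heart, lies on chromosome 11 from 102799477 to 102819686. It varied least of the tested set, with 1.93-fold between the highest and the lowest group mean. The 2D libraries held 27.8, 24.4 and 29.4 CPM and the 3D libraries 13.2, 13.6 and 16.1 CPM. They did not overlap, and the difference was -0.93 ± 0.17 (adjusted p = 8.59e-05). In 3D-2D, at 24.4 and 23.4 CPM, Gjc1 was 0.74 ± 0.18 above 3D (adjusted p = 0.00178). The second 3D phase, at 17.7, 19.1 and 17.2 CPM, was not called against 3D-2D (-0.41 ± 0.18, adjusted p = 0.0684) or against 3D-2D-2D (-0.09 ± 0.17), whose libraries held 18.1, 21.3 and 18.2 CPM.

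At 5 days the arrangements overlapped, with 18.1, 14.9 and 20.3 CPM in 2D and 14.3, 16.0 and 17.7 CPM in 3D (-0.15 ± 0.17). The effect of 3D at 5 days was smaller than that with no stated time by a tested difference of 0.78 ± 0.24 (adjusted p = 0.0213). In that contrast 2 of 9 genes were called, beside 25.5% of all genes. The call was lost without 2D-5days replicate 2 (0.63, adjusted p = 0.0745) and without 3D-5days replicate 3 (0.70, adjusted p = 0.0549).

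Gjb2, connexin 26, mainly an epithelial connexin on chromosome 14 from 57098602 to 57104702, had 15 reads in all 29 libraries together. It was at 0 in 19 of them and had at most 2 reads in any. At this depth no difference between groups was detectable.

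Of 20 listed connexins and pannexins outside the set, 8 were tested, and 3 were lower and 2 higher in 3D against 2D, 62.5% called beside 54.0% of all genes. Panx1, a channel protein that releases ATP, was higher, 60.0 against 22.2 CPM (1.43 ± 0.14, adjusted p = 3.4e-08). It was lower again in 3D-2D (-1.70 ± 0.17) and higher in 3D-2D-3D against 3D-2D (1.40 ± 0.16) and at 5 days (1.69 ± 0.15), the opposite sign to Cdh2 in each.

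Ncam1, the neural cell adhesion molecule, lies on chromosome 9 from 49502129 to 49799393. It had 95.3, 88.0 and 50.8 CPM in the 2D libraries and 21.0, 23.8 and 12.9 CPM in the 3D libraries. Replicate 3 was the lowest of both groups, the groups did not overlap, and the difference was -2.02 ± 0.28 (adjusted p = 3.08e-06), -2.06 in replicates 1 and 2 and -1.96 in replicate 3. The 3D-2D libraries held 136 and 188 CPM, the highest of the 29. That is 3.08 ± 0.30 above 3D (adjusted p = 3.19e-08) and 1.06 ± 0.29 above 2D (adjusted p = 0.0189). Both 3D-2D libraries lay above all 2D libraries, but the call against 2D was lost without 2D replicate 3 (0.80, adjusted p = 0.0569) or 3D-2D replicate 2 (0.81, adjusted p = 0.255).

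In 3D-2D-3D Ncam1 was low again at 18.1, 14.9 and 18.3 CPM, while 3D-2D-2D held 90.4, 82.4 and 89.9 CPM. The differences were -3.24 ± 0.30 from 3D-2D (adjusted p = 2.55e-08) and -2.36 ± 0.28 from 3D-2D-2D (adjusted p = 8.51e-07). At 5 days it was 81.2, 105 and 113 CPM in 2D and 13.2, 14.2 and 17.2 CPM in 3D, -2.74 ± 0.29 (adjusted p = 2.08e-07). The 3 groups ending in 3D, with means of 14.9 to 19.2 CPM, overlapped each other and lay below the 7 groups ending in 2D. Those ran from 162 ± 36.8 CPM (SD, n = 2) in 3D-2D to 75.1 ± 18.3 CPM (n = 3) at 64 kPa, and all but 3D-2D overlapped in turn. Schwann cells of nerves also make Ncam1. Their 8 markers summed to 31.3 to 39.7 CPM in 3D, 22.8 to 24.6 CPM in 3D-2D-3D and 9.45 to 14.7 CPM in 2D, and to 6.14 and 6.82 CPM in 3D-2D. Their part in the Ncam1 values was not tested.

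Vcam1, on chromosome 3 from 116110020 to 116129688, had 212, 198 and 346 CPM in 2D and 304, 340 and 342 CPM in 3D. The groups overlapped through 2D replicate 3, and the difference of 0.38 ± 0.22 was not called (adjusted p = 0.153). In replicates 1 and 2 it was 0.63 and called (adjusted p = 0.0394), in replicate 3 it was 0.00, and without 2D replicate 3 it was 0.66 (adjusted p = 0.018). The 3D-2D libraries, at 291 and 292 CPM, lay within 2D and below 3D, and neither difference was called.

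The second 3D phase was the high point of Vcam1. The 3D-2D-3D libraries held 1313, 1287 and 1115 CPM, above each of the other 26 libraries. The difference was 2.09 ± 0.27 from 3D-2D (adjusted p = 1.59e-06) and 1.66 ± 0.23 from 3D-2D-2D (adjusted p = 5.14e-06), whose libraries held 391, 400 and 384 CPM. Macrophage markers summed to 221 to 243 CPM in 3D-2D-3D and 445 to 453 CPM in 3D-2D-2D. Endothelial markers, all 12 tested, summed to 312 to 414 CPM in 3D-2D-3D and 671 to 720 CPM in 3D-2D-2D. Their part in the Vcam1 values was not tested.

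At 5 days Vcam1 had 369, 420 and 402 CPM in 2D and 219, 261 and 301 CPM in 3D. The 3D libraries were lower without overlap, -0.61 ± 0.22 (adjusted p = 0.0423), and leaving out any of these 6 libraries but 3D-5days replicate 3 ended that call (-0.50 to -0.66). The change at 5 days differed from that with no stated time by -0.99 ± 0.32 (adjusted p = 0.0249), a call lost without 2D replicate 1 (-0.88) or 2 (-0.84), 3D replicate 3 (-0.93) or 3D-5days replicate 1 (-0.88). The substrates came second in the order of means, 642 ± 133 to 780 ± 275 CPM (SD, n = 3 each), with replicate 3 lowest in each, at 484, 575 and 491 CPM. Below came 2D-5days (397 ± 25.9 CPM, n = 3) and 3D-2D-2D (392 ± 8.11 CPM, n = 3), which overlapped, then 3D at 328 ± 21.2 CPM (n = 3), and last 3D-2D, 3D-5days and 2D (252 to 292 CPM), which overlapped in turn.

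Icam1, on chromosome 9 from 21015940 to 21028814, whose upstream window is shown above, had 39.9, 32.8 and 15.5 CPM in 2D and 52.3, 50.6 and 13.8 CPM in 3D. It was higher in 3D in replicates 1 and 2 and lower in replicate 3, and the difference of 0.41 ± 0.52 was not called (adjusted p = 0.521). The 3D-2D libraries, at 6.52 and 8.53 CPM, were the lowest of all 29. The difference from 3D was -2.37 ± 0.64 (adjusted p = 0.00357). In 3D-2D-3D the libraries held 88.6, 86.9 and 9.22 CPM, all above 3D-2D, by 3.03 ± 0.66 (adjusted p = 0.000618), and 2.65 to 3.52 with single libraries left out.

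Against 3D-2D-2D, at 30.2, 30.0 and 32.0 CPM, replicates 1 and 2 of 3D-2D-3D were higher and replicate 3 lower. The difference of 1.0 ± 0.52 was not called (adjusted p = 0.132). It was 1.52 and called without replicate 3 of 3D-2D-3D (adjusted p = 0.00275), and -1.79 in replicate 3 alone (adjusted p = 0.0933). At 5 days Icam1 was 40.9, 44.3 and 40.5 CPM in 2D and 36.1, 31.8 and 36.7 CPM in 3D. These did not overlap, but -0.26 ± 0.52 was not called. From 3D-2D-3D (61.6 ± 45.4 CPM, n = 3) to 0.5 kPa (21.9 CPM) the 8 highest group means overlapped in turn. Macrophages also make Icam1. Their markers, given above for 2D and 3D, summed to 232, 221 and 243 CPM in replicates 1, 2 and 3 of 3D-2D-3D, and their part in the Icam1 values was not tested.

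**Figure D4:**
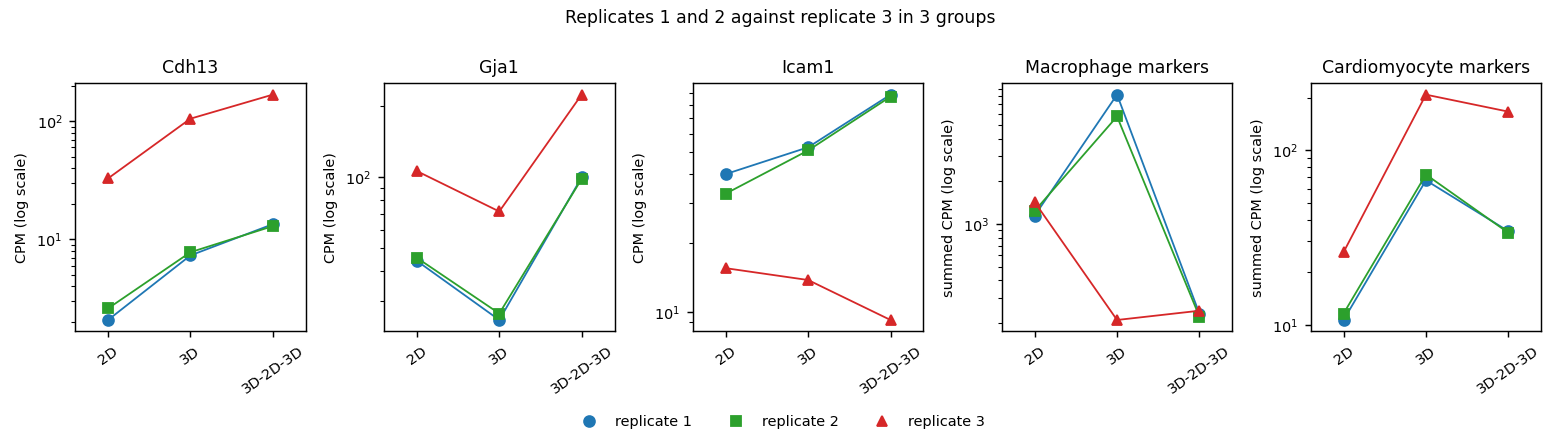
Cdh13, Gja1 and Icam1 in CPM and the summed CPM of macrophage and cardiomyocyte markers, on log axes, in 2D, 3D and 3D-2D-3D; lines join libraries that share a replicate number. Replicate 3 is above replicates 1 and 2 in all 3 groups for Cdh13, Gja1 and cardiomyocyte markers and below them for Icam1; for macrophage markers it is far below them in 3D, at 209 CPM against 8207 and 5756 CPM.

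Of 24 tested immunoglobulin-fold adhesion genes outside the set, 5 were higher and 6 lower in 3D than in 2D, 45.8% called beside 54.0% of all genes. The poliovirus receptor Pvr (-1.73 ± 0.17) and the nectins Pvrl2 (-1.70 ± 0.33) and Pvrl3 (-1.68 ± 0.14), adhesion molecules of adherens junctions, were among those lower. In 3D-2D-3D against 3D-2D-2D 6 were higher and 5 lower (45.8% beside 40.4%). Beside Vcam1, Alcam, the activated leukocyte cell adhesion molecule, was at 167 CPM against 7.19 CPM (4.53 ± 0.61, adjusted p = 4.4e-06). Jam2, a junctional adhesion molecule, was at 489 CPM against 88.0 CPM (2.47 ± 0.31, adjusted p = 1.53e-06). Pvr was also higher (1.10 ± 0.16), whereas Pvrl2 was lower, at 23.1 CPM against 72.1 CPM (-1.64 ± 0.33, adjusted p = 0.000449). At 5 days 9 were higher and 4 lower (54.2% beside 32.4%), with Bcam, a laminin receptor, at -2.28 ± 0.30.

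Partners of the immunoglobulin-fold genes moved in both directions, 7 of 15 tested higher and 4 lower in 3D against 2D (73.3% called beside 54.0% of all genes). Gfra1, a GDNF receptor that can pair with Ncam1, was at 63.9 CPM in 3D and 5.94 CPM in 2D (3.34 ± 0.44, adjusted p = 2.02e-06). It was lower in 3D-2D than in 3D (-3.34 ± 0.52) and higher in 3D-2D-3D than in 3D-2D (3.93 ± 0.53), the reverse of Ncam1 in all 3. Itga4, the integrin chain that binds Vcam1, had 10.2 CPM in 3D-2D-3D, where Vcam1 was highest, against 43.9 CPM in 3D-2D (-2.10 ± 0.64) and 48.6 CPM in 3D-2D-2D (-2.25 ± 0.61). Itgb2 and Itgax, chains of the leukocyte integrins that bind Icam1, were higher in 3D at 5 days, at 2.45 ± 0.75 and 3.71 ± 0.93. Macrophage markers summed there to 11294, 3043 and 3631 CPM in 3D and to 2853, 706 and 696 CPM in 2D, and their part in those values was not tested.

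NF-kappaB feedback and target genes, among which Vcam1 and Icam1 were not counted, were called in 4 of 22 cases in 3D against 2D, 0 higher and 4 lower, which is 18.2% beside 54.0% of all genes. Without replicate 3 of 2D, 3D and 3D-2D-3D, the count was 3 higher and 3 lower, beside 3516 higher and 3609 lower of all 14036 genes. In 3D-2D-3D 7 were higher and 1 lower against 3D-2D, 36.4% called beside 49.2% of all genes, with Bcl3, a nuclear cofactor of NF-kappaB, at 2.58 ± 0.39 and Nfkbie, an inhibitor of it, at 1.71 ± 0.35, while Ptgs2 (cyclooxygenase-2) was lower at -1.98 ± 0.65. Against 3D-2D-2D 6 were higher and 0 lower, 27.3% beside 40.4%, with Tnfaip2 at 1.21 ± 0.28 and Ptgs2 at 5.67 ± 0.75 (262 against 5.10 CPM). Without those 3 libraries 12 of 22 were higher in each of the 2 comparisons. Of all 14036 genes 3446 were then higher and 3602 lower against 3D-2D, and 2799 higher and 3022 lower against 3D-2D-2D. The list's lower counts are not given here, and leaving out these libraries was chosen after seeing the data.

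Whether cells that had been in 3D differed in 2D from cells that had not was asked with 3D-2D against 2D. Of the 9 genes, Ncam1 was called higher and Cdh3 (-2.04 ± 0.63, adjusted p = 0.0334) and Icam1 (-1.96 ± 0.63, adjusted p = 0.0411) lower, beside 14.4% of all genes called (6.85% higher, 7.54% lower). Cdh2 (0.07 ± 0.15), Cdh11 (-0.06 ± 0.20), Gjc1 (-0.19 ± 0.19), Vcam1 (0.21 ± 0.25), Gja1 (-0.17 ± 0.41) and Cdh13 (-1.0 ± 1.15) were not called. Without 2D replicate 3, Gja1 was at 0.36 and Cdh13 at 1.45, the other sign, and neither was called. The Icam1 and Ncam1 libraries did not overlap between the groups, 2 of 9 beside 52.1% of all genes, whereas Cdh3 in 2D replicate 3 (1.07 CPM) lay below both 3D-2D libraries. An edgeR fit of only these groups called 0 of the 9. Leaving out single libraries left 0 to 2, beside 175 to 2891 of all genes. Cdh3 (-1.51 to -2.05) and Icam1 (-1.67 to -2.16) were lost without 2D replicate 1 or 2 and without 3D-2D replicate 1 or 2.

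No gene of the set was called between substrates. In each of the 3 comparisons of 0.5, 8 and 64 kPa 0 of 9 were called and 0 had an unadjusted p under 0.05. Over all genes edgeR called 0, or 0%, with 82, 175 and 241 genes at an unadjusted p under 0.05, and DESeq2 also called 0. Gja1 differed by 0.08 ± 0.37 between 8 and 0.5 kPa, by -0.25 ± 0.37 between 64 and 0.5 kPa and by -0.33 ± 0.37 between 64 and 8 kPa. For Vcam1 the values were -0.04 ± 0.22, -0.28 ± 0.22 and -0.24 ± 0.22. Libraries did not overlap for Icam1 at 8 against 0.5 kPa and for Gja1 at 64 against 8 kPa, 1 of 9 genes in each of these comparisons and 0 of 9 between 64 and 0.5 kPa, beside 3.61%, 7.47% and 5.05% of all genes. These errors leave room for differences of the size shown, so the result is a lack of calls and not equality. With the replicate number as a block, Gja1 (-0.33, adjusted p = 0.00881) and Vcam1 (-0.23, adjusted p = 0.00187) were called lower at 64 than at 8 kPa, among 664 genes.

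Genes whose 10 group means of log2 CPM ran most like those of a member were found among 9100 candidates. The values are a description over 10 groups that share libraries. Ncam1 was closest to Crim1 (Pearson r = 0.983), a membrane protein that binds BMPs, and to Lpcat4 and Cnn2 (0.977 each), the last an actin-binding calponin. Cdh2 ran with Gng12 (0.979), a G protein subunit, and Loxl3 (0.976), a lysyl oxidase, and Cdh3 with Cemip (0.978), which takes part in hyaluronan breakdown. Gja1 ran with Tulp4 (0.979), Vcam1 with Plscr1 (0.981), a phospholipid scramblase, and Icam1 with Man1a (0.953), a mannosidase of the Golgi. Gjc1 ran with Smc3 (0.986), a cohesin subunit, Cdh11 with Ak1 (0.962) and Cdh13 with Serpini1 (0.945).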

How the data were processed

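RNA sequencing of mouse cardiac fibroblasts gave 29 libraries in 10 groups, assigned from the labels. As deposited by the authors, 1 table held raw counts of reads for each gene symbol, not normalized. TopHat, HTSeq, Bowtie and MACS2 and the mm10 build are named in the submitters' processing notes, without versions; the annotation and the strand setting were not stated there. Summary lines of the counting program took 21.8% to 34.1% of a library and were left out.

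The fit was edgeR 4.0.16 (quasi-likelihood, robust) with limma 3.58.1 in R 4.3.3 over all 29 libraries, 1 mean per group, with genes kept by filterByExpr, TMM factors of 0.868 to 1.10 and Benjamini-Hochberg adjustment over the 14036 tested genes, called at an adjusted p under 0.05. Changes are log2 fold changes ± SE, with SE taken from fold change and F, and levels are CPM, mean ± SD. Log2 CPM used a prior count of 2. Ratios of pooled reads have 95% exact intervals, which cover counting error only, and the labels name no molecular identifiers. Positions and upstream sequences come from RefSeq tables of GRCm38.p6, matched by symbol.

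All members are named. Of each related list, up to 4 called genes were named, those with the largest change whose mean log2 CPM reached 3 and whose libraries did not overlap, and the text gives part of them; for each member the 3 genes most alike were found. Members, lists, markers and tests were chosen with earlier results of these data known. Replicate numbers were taken as pairs where a comparison had 3 pairs and deviations from the group means correlated over 0.1 in every pair. This held in 3D with 2D (0.141, 0.230 and 0.232), at 5 days (0.572, 0.288 and 0.337) and for the substrates, though another number at times correlated more. Comparisons with 3D-2D have 2 pairs, so they could not qualify. Alternatives were other scalings and filters, DESeq2 1.42.0, single libraries left out, replicate subsets, summed libraries, and fits of the compared groups alone, with and without a replicate block. The block was also fitted where the numbers were not taken as pairs, as in the comparisons with 3D-2D. The scripts were tested on simulated data.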

Additional observations from a re-analysis of the deposited data

Results flagged for a closer look

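The effects on 2 genes were flagged by an interaction test in edgeR. For them the effect of 3D differed between cultures at 5 days and cultures with no stated time. That is 2 of 9 tested members, or 22.2%, beside 25.5% of all genes, so the count is not above the background. In 12 fits with 1 library left out, the call was lost in 2 for Gjc1 and in 4 for Vcam1. For Gjc1 the difference of differences was 0.78 ± 0.24 (SE, adjusted p = 0.0213): 3D against 2D was -0.93 with no stated time and -0.15 at 5 days. Gjc1 in 3D was lower than in 2D in replicates 1, 2 and 3 with no stated time and at 5 days was lower in replicates 1 and 3 and higher in replicate 2. For Vcam1 it was -0.99 ± 0.32 (adjusted p = 0.0249), from 0.38 with no stated time to -0.61 at 5 days, where 3D was lower in all 3 replicates. The 2D cultures themselves differed in level, Vcam1 at 252 ± 81.5 CPM with no stated time and 397 ± 25.9 CPM at 5 days, and Gjc1 at 27.2 and 17.8 CPM. The stated and unstated times belong to different libraries, so time and library set cannot be told apart.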

How the results depend on the processing

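Of 33 called values of single genes, 23 were called under every alternative. Over 1403 alternative values, 1319 kept their direction and side of the threshold, 50 lost a call, 32 gained one and 2 reversed; 79 uncalled values changed sign without being called and are counted as kept. The reversals came with the replicate block in 3D-2D against 2D, Cdh13 at 1.42 (adjusted p = 0.00078) and Gja1 at 0.35 (adjusted p = 0.0179). The block leaves 2D replicate 3 without a partner there, so these values rest on replicates 1 and 2. Leaving 2D replicate 3 out without a block gave 1.45 and 0.36, and neither was called. Replicate numbers were not taken as pairs in 3D-2D against 2D, which has only 2 pairs, so its correlations of 0.045 and -0.007 could not decide this. That comparison moved most: its 3 called members became 0 with the most alike libraries summed, 0 in a fit of only these groups and 6 with the block, and its 2019 called genes became 89, 487 and 6341; leaving out single libraries gave 0 to 2 members and 175 to 2891 genes. With the most alike libraries summed, genes called were 3195 for 3D-2D-3D against 3D-2D-2D (5677), 2252 at 5 days (4548) and 1161 for the difference between times (3583), the last with 0 members (2). In replicate 3 alone they were 4946 for 3D against 2D (7576), 1583 for 3D-2D-3D against 3D-2D-2D and 1560 at 5 days, with 3 members (5), and 0 members for the difference between times. For that difference replicates 1 and 2 gave 1 member and 2217 genes, only the groups compared 2107 genes and the replicate block 2382 genes; leaving out single libraries gave 1 to 3 members and 2941 to 3887 genes. On the substrates the replicate block called 2 genes for 8 against 0.5 kPa and 2 members and 664 genes for 64 against 8 kPa, where replicates 1 and 2 gave 1 gene (0). The causes were not tested, beyond fewer libraries in the summed and single-replicate fits and the unpaired 2D replicate 3 described above. The replicate block changed other calls as given in the report.

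Library totals without TMM factors moved the median of all genes most in 3D-2D-3D against 3D-2D-2D, from -0.01 to 0.22; that comparison then had 4747 genes higher and 1893 lower, against 2782 and 2895, and 5 days 2912 and 1877, against 2098 and 2450. Called members kept their sign under both other scalings. The list counts under these scalings and without replicate 3 of 2D, 3D and 3D-2D-3D were chosen after seeing the data. Replicates 1 and 2 alone and replicate 3 alone were not run where 3D-2D is compared, which has no replicate 3. Of 200 levels, 17 moved by more than 1 SD under other scaling. Depth limits Cdh3 in the groups ending in 3D and Gjb2 in every group.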
